A study of Mus musculus with 18 samples.

Results

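RNA of 5 genes that bind, sense or export zinc was examined in cultured mouse neural stem cells (NSCs) and in astrocytes made from them. The genes were the metallothioneins Mt1, Mt2 and Mt3, the zinc-sensing transcription factor gene Mtf1 and the zinc exporter gene Slc30a1 (ZnT1). They were chosen by name from the 27997 genes of the table, and all 5 were found and passed the filter on low values, as did 15448 genes in all. Mt4, the remaining gene of the mouse metallothionein cluster, is not among the 27997 genes and so was not analysed here.

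Metallothioneins are small, cysteine-rich proteins that hold zinc and copper ions in clusters and can release them or react with oxidants. MTF-1, the protein of Mtf1, is a zinc finger factor that becomes active when free zinc rises and binds metal response elements in the promoters of Mt1, Mt2 and Slc30a1, whose product moves zinc out of the cell. In the nervous system Mt1 and Mt2 are known mainly from astrocytes, where metals, glucocorticoids and injury induce them, and Mt3 is the brain-enriched member, which responds little to metals.

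Adherent NSC lines came from 3 sources. The tdTomato line (genotype DNGR-1 +/- Tom+/-) and the EYFP line (DNGR-1 +/- EYFP+/-) were grown from reporter-positive cells sorted out of spinal cord neurospheres of mice in which Cre, driven from the DNGR-1 (Clec9a) locus, had switched on the reporter. The third line (DNGR-1+/+) came from the hippocampus of mice carrying a Glast Cre, a floxed Huwe1 allele (written Huwe fl in the labels) and a ROSA LSL EYFP reporter. Each line was sequenced as NSCs, after 4 days with bFGF and EGF (20 ng/ml each), N-2 supplement, heparin and laminin, and as astrocytes, collected after 6 days, for which the NSC medium had been replaced by DMEM:F12 with BMP4 (20 ng/ml). Each of the 6 groups had 3 replicates, grown from passages 10, 11 and 12 of 1 line, so that p-values measure the spread between cultures of a line and not between animals. BMP4, the medium without the growth factors and supplement, and the longer culture cannot be told apart, nor can region of origin, genotype and line. With "traced" the tdTomato and EYFP lines are meant together.

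Each value is the log2 value that the authors deposited, which is relative to library size and carries no gene length, and differences are on the log2 scale, where 1 is a doubling. Differences were tested with limma in a model of the 6 group means over all 18 libraries, with Benjamini-Hochberg adjustment over the 15448 genes, and a gene was called at an adjusted p under 0.05. The counts behind the values are not in the table, so no counting error is given. Replicates of a group differed by a median of 0.0607 to 0.107 over 11956 well expressed genes. The fates were as labelled by most of their markers. Of 8 astrocyte marker genes 7 rose in astrocytes (Gfap by 6.53) and Aldh1l1 did not pass the test (0.09), and 4 of 4 proliferation genes fell (Mki67, -6.21). Of 6 NSC markers, 2 fell in the mean of the lines (Nes and Fabp7) and 4 rose. Nes fell chiefly in the traced lines, from 14.27 to 11.09 in the tdTomato and from 13.90 to 10.86 in the EYFP group means, while in the hippocampal line it went from 13.86 to 13.64. Of 5 neuron genes tested 3 rose and 1 fell, of 4 oligodendrocyte genes 1 rose and 2 fell, and of the 2 endothelial and mural genes tested Flt1 rose by 0.37, while Kcnj8 passed the filter only through the astrocytes, so its rise is not counted. The 4 microglial genes found were all under the filter. Because cultures were lysed whole, fewer cells of a type and less RNA per cell cannot be told apart.

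The 3 metallothionein genes lie side by side on chromosome 8 (GRCm38, GENCODE M21), all on the plus strand and all protein coding: Mt3 (ENSMUSG00000031760) at chr8:94152607-94154146, Mt2 (ENSMUSG00000031762) at chr8:94172664-94173568 and Mt1 (ENSMUSG00000031765) at chr8:94179082-94180327. Mtf1 (ENSMUSG00000028890) is at chr4:124802104-124849800 and Slc30a1 (ENSMUSG00000037434) at chr1:191906767-191913247, both also on the plus strand. The bases just upstream of 4 of the genes are shown, searched for the letters by which MTF-1 is known to recognise its targets, the cores TGCACNC and TGCGCNC, which the runs of Mt1, Mt2 and Slc30a1 hold and that of Mt3 does not. The sequences are from RefSeq (GRCm38.p6, plus strand), Mt1 from chr8:94178839-94179081, Mt2 from chr8:94172368-94172617, Mt3 from chr8:94152357-94152606 and Slc30a1 from chr1:191906531-191906766. Capitals mark each core on either strand.
Mt1: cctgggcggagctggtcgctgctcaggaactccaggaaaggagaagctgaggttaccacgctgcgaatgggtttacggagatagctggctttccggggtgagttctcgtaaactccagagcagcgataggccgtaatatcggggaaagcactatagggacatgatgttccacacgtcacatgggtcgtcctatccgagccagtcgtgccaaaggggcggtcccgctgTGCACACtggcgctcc
Mt2: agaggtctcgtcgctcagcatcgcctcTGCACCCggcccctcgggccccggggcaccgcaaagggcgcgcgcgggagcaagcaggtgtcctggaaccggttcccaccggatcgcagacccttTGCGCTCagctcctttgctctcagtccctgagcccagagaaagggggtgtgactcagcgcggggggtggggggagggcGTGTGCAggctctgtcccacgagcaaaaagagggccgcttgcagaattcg
Mt3: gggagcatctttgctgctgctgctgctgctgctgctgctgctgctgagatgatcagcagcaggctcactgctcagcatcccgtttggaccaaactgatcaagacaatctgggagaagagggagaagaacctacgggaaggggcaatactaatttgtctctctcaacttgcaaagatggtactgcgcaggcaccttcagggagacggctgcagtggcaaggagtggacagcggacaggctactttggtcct
Slc30a1: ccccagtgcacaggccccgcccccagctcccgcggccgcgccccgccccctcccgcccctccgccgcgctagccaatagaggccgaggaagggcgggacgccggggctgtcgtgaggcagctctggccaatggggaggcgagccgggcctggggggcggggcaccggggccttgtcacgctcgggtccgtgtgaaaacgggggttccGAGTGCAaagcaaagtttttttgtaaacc

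Over the whole window of 300 bases around the RefSeq start, from 250 bases before it to 50 bases after it, Mt2 held 4 cores, Mt1 held 3, Slc30a1 held 2, Mt3 held 1 and Mtf1 held 0, and none of these overlapped another. At least 1 core was present in 25.7% of all 32851 such windows, at least 2 in 7.11%, at least 3 in 1.97% and at least 4 in 0.518%. The upstream run of Mt3 carried the triplet CTG 11 times in a row. These are matches of letters and not measured binding. The run of Mt2 also lies inside Gm45774, a gene annotated on the opposite strand.

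All 5 genes were higher in astrocytes than in NSCs in the mean of the 3 lines, against 44.3% of all genes tested that rose (42.0% fell). The metallothioneins stood apart from the sensor and the exporter in size: Mt1 and Mt2 rose more than 4-fold and Mt3 rose 2.27-fold, while Mtf1 and Slc30a1 rose by 24.4% and 19.6% on the linear scale. The 3 metallothioneins were the members that rose by at least 1, as did 14.6% of all genes. The median change of the 5 genes was 1.19, and that of all genes tested was 0.02.

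**Figure D1:**
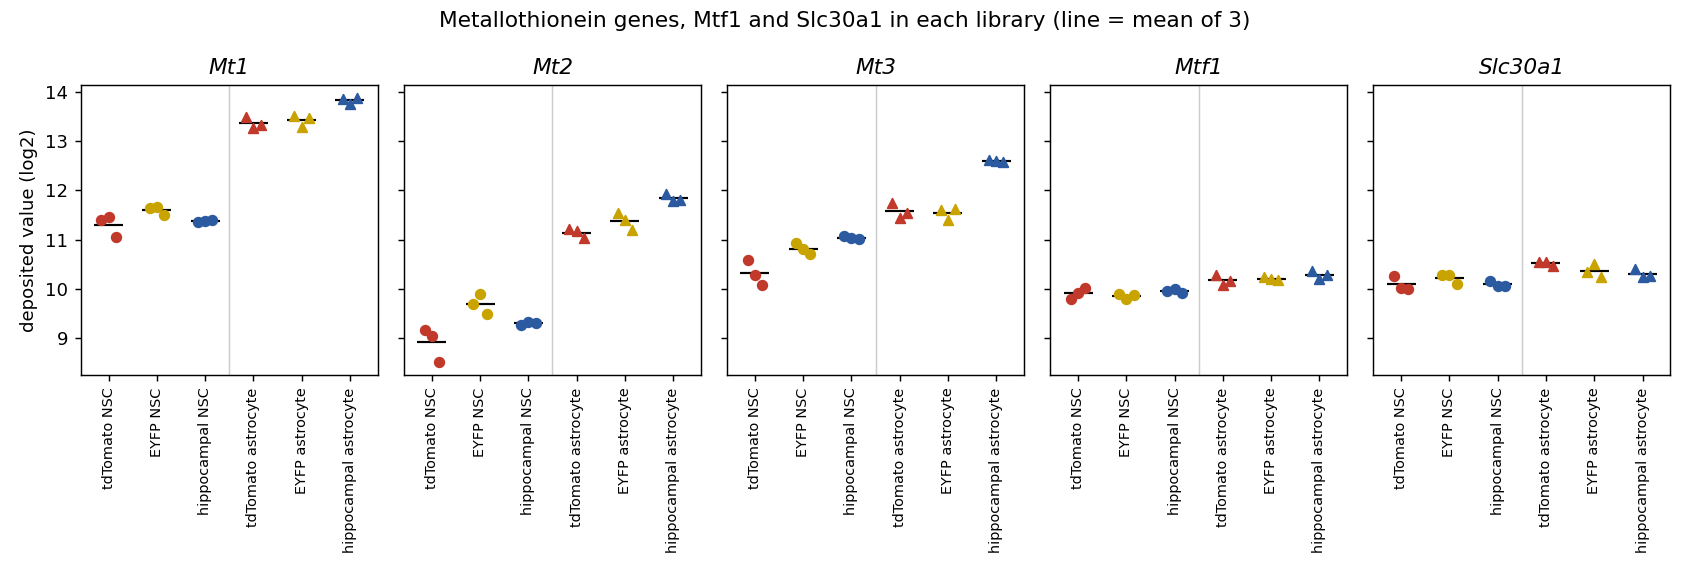
Deposited log2 values (vertical axis) of the 5 genes in each of the 18 libraries, by line and fate, with circles for NSCs, triangles for astrocytes and a line at each group's mean. The 9 astrocyte libraries lie above the 9 NSC libraries for Mt1, Mt2, Mt3 and Mtf1, while those of Slc30a1 overlap. How many of all genes separate the fates in this way was not counted.

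Mt1, which encodes one of the metal-induced metallothioneins, read 11.39, 11.46 and 11.06 in tdTomato NSCs (replicates 1 to 3 in this and the following lists) and 13.49, 13.27 and 13.33 in tdTomato astrocytes. In the EYFP line it read 11.63, 11.66 and 11.49 in NSCs and 13.50, 13.29 and 13.47 in astrocytes. In the hippocampal line the values were 11.35, 11.38 and 11.40 in NSCs and 13.84, 13.75 and 13.87 in astrocytes. The lowest astrocyte library thus stood 1.61 above the highest NSC library, and the hippocampal astrocytes were above all traced astrocytes. The mean went from 11.42 ± 0.18 in NSCs to 13.53 ± 0.23 in astrocytes (SD, n = 9 each), a rise of 2.11 ± 0.05 (SE; adjusted p = 2.0e-17 by limma) or 4.31-fold. Of the genes tested, 95.7% had a lower change. In order of level, hippocampal astrocytes came first, then EYFP and tdTomato astrocytes, which overlapped, then EYFP NSCs, and last hippocampal and tdTomato NSCs, which overlapped.

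Mt2, the neighbouring metal-induced gene, was lower than Mt1 per kilobase in all libraries and had the same pattern. It read 9.17, 9.05 and 8.53 in tdTomato NSCs and 11.21, 11.18 and 11.04 in tdTomato astrocytes. In the EYFP line it read 9.70, 9.91 and 9.50 in NSCs and 11.53, 11.39 and 11.20 in astrocytes. In the hippocampal line it read 9.27, 9.33 and 9.30 in NSCs and 11.93, 11.79 and 11.81 in astrocytes. NSC and astrocyte libraries were apart by 1.14, and the third tdTomato NSC library was the lowest of all. The mean went from 9.31 ± 0.39 to 11.45 ± 0.33 (SD, n = 9 each), a rise of 2.15 ± 0.07 (SE; adjusted p = 4.6e-15 by limma) or 4.43-fold. Its order of groups was that of Mt1, with the traced astrocytes overlapping by less than 0.01 and the 3 NSC groups all apart.

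A limit applies to Mt2. Of its 75-base stretches, 30.25% also occur on the opposite strand in Gm45774, and whether reads were counted by strand is not given in the sources used here, so that reads of the pair may not have been told apart. Gm45774 itself read 3.20 ± 0.40 in NSCs and 5.53 ± 0.30 in astrocytes (SD, n = 9 each), a rise of 2.33 ± 0.15 (SE; adjusted p = 3.1e-11 by limma) at a far lower level. Its part in the values of Mt2 was not tested. Mt1 and Mt3 shared no stretch with another gene, and Mtf1 and Slc30a1 shared 7.27% and 7.54% of theirs with a gene on the opposite strand, 1110065P20Rik and 1700034H15Rik. Of these, 1110065P20Rik fell by 0.23 in astrocytes. The other, 1700034H15Rik, passed the filter only through the astrocytes, with means of 3.06 in NSCs and 3.56 in astrocytes. Its rise of 0.50 is therefore not counted.

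Mt3, the brain-enriched metallothionein that was first described as a growth inhibitory factor for neurons, rose less than Mt1 and Mt2 in the mean of the lines. It read 10.59, 10.27 and 10.08 in tdTomato NSCs and 11.75, 11.44 and 11.55 in tdTomato astrocytes. In the EYFP line it read 10.94, 10.81 and 10.71 in NSCs and 11.60, 11.40 and 11.62 in astrocytes. In the hippocampal line it read 11.07, 11.03 and 11.01 in NSCs and 12.62, 12.60 and 12.58 in astrocytes. The 2 fates were apart by 0.34, and the 3 hippocampal astrocyte libraries stood 0.84 above the highest traced astrocyte library. The mean went from 10.72 ± 0.35 to 11.91 ± 0.53 (SD, n = 9 each), a rise of 1.19 ± 0.06 (SE; adjusted p = 7.8e-13 by limma). Unlike Mt1 and Mt2, its NSC levels were highest in the hippocampal line, followed by the EYFP and the tdTomato line, with all 3 groups apart, and only the traced astrocyte groups overlapped.

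Mtf1, which encodes the zinc sensor, rose by less than any metallothionein. Its 9 NSC libraries lay between 9.80 and 10.02 with a median of 9.91, and its 9 astrocyte libraries between 10.08 and 10.37 with a median of 10.20. The fates did not overlap, and the share of all genes for which this holds was not counted. Within each fate the neighbouring groups in the order of levels overlapped, while the EYFP NSC libraries (9.80 to 9.90) lay below the hippocampal ones (9.91 to 10.00). The rise was 0.31 ± 0.03 (SE; adjusted p = 1.0e-07 by limma).

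Slc30a1, which encodes the exporter and is a classical target of MTF-1, lay between 10.00 and 10.29 in NSCs with a median of 10.11, and between 10.24 and 10.55 in astrocytes with a median of 10.41. The fates overlapped, as did every pair of neighbouring groups in the order of levels, which ran from tdTomato, EYFP and hippocampal astrocytes to EYFP, hippocampal and tdTomato NSCs. The rise was 0.26 ± 0.04 (SE; adjusted p = 2.6e-05 by limma), against 2.11 for Mt1.

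Levels of different genes were compared per kilobase of the principal transcript, on the log2 scale. In NSCs the mean level per kilobase was 12.29 for Mt1, 11.62 for Mt3, 10.28 for Mt2, 7.75 for Slc30a1 and 6.98 for Mtf1. In astrocytes it was 14.40 for Mt1, 12.81 for Mt3, 12.42 for Mt2, 8.01 for Slc30a1 and 7.29 for Mtf1. The order of the 5 genes was therefore the same in both fates, but the proportions among metallothioneins moved. Per kilobase, Mt1 was 1.94, 1.67 and 1.24 times as high as Mt3 in tdTomato, EYFP and hippocampal NSCs, and 3.36, 3.59 and 2.27 times as high in the astrocytes of these lines. Against Mt2 it was 3.45 to 4.87 times as high in the 3 NSC groups and 3.67 to 4.33 times in the astrocytes. Mt3 exceeded Mt2 2.06-fold to 3.17-fold in NSCs and 1.07-fold to 1.61-fold in astrocytes, and in EYFP astrocytes the sign of that difference varied between the 3 libraries.

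**Figure D2:**
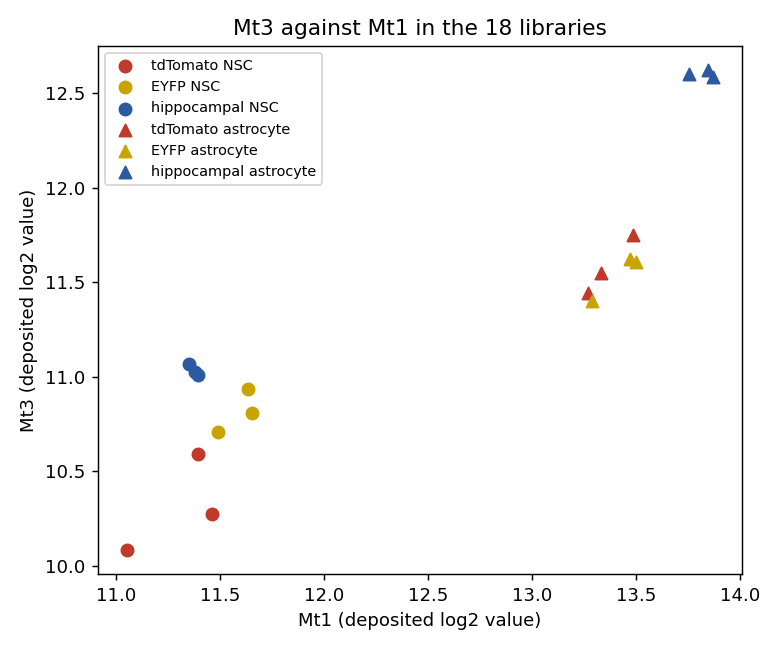
Deposited log2 values of Mt3 (vertical axis) against Mt1 (horizontal axis), 1 point a library, with circles for NSCs and triangles for astrocytes. The hippocampal libraries lie above the traced ones in Mt3 in both fates, and in Mt1 in astrocytes but not in NSCs.

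Each line was then tested on its own. All 5 genes rose in the tdTomato line, where 39.9% of genes tested did. Of the 5, 4 rose in the EYFP line, against 38.2% of genes, and all rose in the hippocampal line, against 39.0%. Mt1 rose by 2.06 in tdTomato cultures, by 1.82 in EYFP cultures and by 2.45 in hippocampal cultures (SE 0.09 each). In the same order Mt2 rose by 2.23, 1.67 and 2.54 (SE 0.13 each), and Mt3 by 1.26, 0.72 and 1.57 (SE 0.10 each). For each metallothionein the hippocampal line thus had the highest value and the EYFP line the lowest. Mtf1 rose by 0.26, 0.35 and 0.33 (SE 0.06 each). Slc30a1 rose by 0.43 in the tdTomato and by 0.21 in the hippocampal line, while its difference in the EYFP line was 0.14, with a 95% interval from -0.02 to 0.30 (adjusted p = 0.114 by limma). The call in the hippocampal line (adjusted p = 0.018 by limma) was lost without NSC replicate 2 (0.19, adjusted p = 0.0555), without NSC replicate 3 (0.19, 0.0565) and without astrocyte replicate 1 (0.16, 0.0903).

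**Figure D3:**
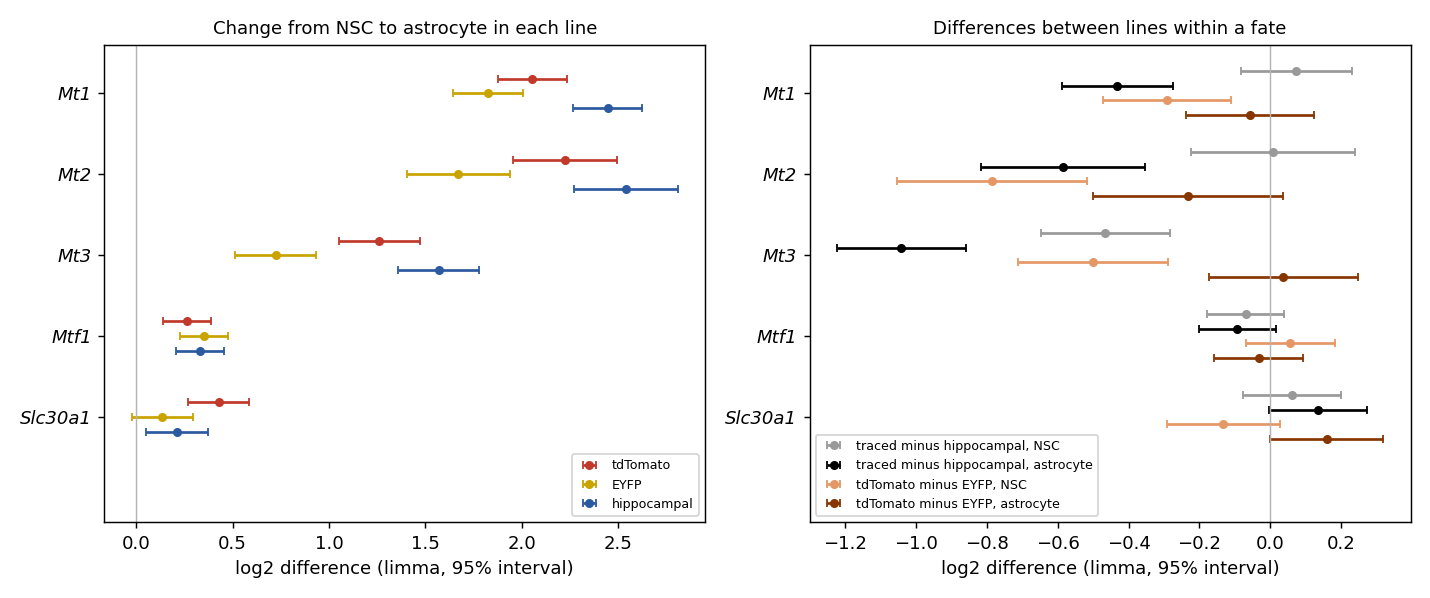
Log2 differences (horizontal axis) with 95% intervals from limma for the 5 genes. On the left, the change from NSC to astrocyte in each line, which is 1.67 or more for Mt1 and Mt2 and under 0.5 for Mtf1 and Slc30a1, and on the right, the differences between lines within a fate, the widest being that of Mt3 in traced against hippocampal astrocytes (-1.04).

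Whether the rise differed with origin was tested as the change in the traced lines less the change in the hippocampal line. The 3 metallothioneins rose less in the traced lines, by -0.51 ± 0.11 for Mt1 (SE; adjusted p = 7.3e-04), -0.59 ± 0.16 for Mt2 (0.0048) and -0.58 ± 0.12 for Mt3 (8.9e-04), all by limma. The 2 traced lines differed from each other in this change by 0.55 for Mt2, 0.54 for Mt3 and 0.23 for Mt1 (tdTomato less EYFP). Of these, that of Mt3 was called. The share of all genes with a lower change in traced lines was 25.9%, and 20.3% had a higher one. Centring each library on its median moved the share of higher among called genes from 43.9% to 56.2% and did not change the calls of the metallothioneins. The difference was -0.02 for Mtf1 (95% interval -0.18 to 0.13) and 0.07 for Slc30a1 (-0.12 to 0.27).

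Within astrocytes the same 3 genes were lower in traced than in hippocampal libraries, as were 31.9% of all genes, and 27.9% were higher. The share of higher among called genes was 46.7% as deposited, 54.1% with median centring and 53.6% with quantile normalization, and under both the 3 genes were still called lower. Mt1 was lower by -0.43 ± 0.07 (SE; adjusted p = 7.3e-05 by limma), which is 25.9% less on the linear scale. Mt2 was lower by -0.59 ± 0.11 (adjusted p = 1.9e-04 by limma). The difference was widest for Mt3, at -1.04 ± 0.09 (adjusted p = 1.0e-08 by limma), so that hippocampal astrocytes held 2.06 times the level. For all 3 genes the 3 hippocampal libraries were above the 6 traced ones. How common such a separation is among all genes was not counted. Mtf1 differed by -0.09 (95% interval -0.20 to 0.02) and Slc30a1 by 0.13 (-0.004 to 0.27), neither past the threshold. Slc30a1 passed it when libraries were median-centred (0.18, adjusted p = 0.0305) or quantile-normalized (0.18, 0.0331), without EYFP astrocyte replicate 3 (0.0414) or without hippocampal astrocyte replicate 1 (0.0432).

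Within NSCs, Mt3 was the 1 member that differed between origins, where 14.9% of all genes were lower in traced libraries and 17.0% higher (53.2% of called genes were higher as deposited, 43.5% with median centring and 47.7% with quantile normalization). It was lower by -0.47 ± 0.09 (SE; adjusted p = 4.0e-04 by limma). The traced lines were themselves apart by 0.50, and in a fit of the NSC libraries alone the adjusted p was 0.0828. The differences were 0.07 for Mt1 (95% interval -0.08 to 0.23), 0.008 for Mt2 (-0.22 to 0.24), -0.07 for Mtf1 (-0.18 to 0.04) and 0.06 for Slc30a1 (-0.08 to 0.20).

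Some ependymal markers moved with Mt3. Of 4 ependymal genes listed, 3 were found, and Foxj1 and Rarres2 rose in astrocytes and were lower in traced than in hippocampal astrocytes. In NSCs Foxj1 was lower in traced libraries (-0.44) and Rarres2 was not (0.24, adjusted p = 0.518 by limma). Foxj1, the factor that drives motile cilia formation, rose by 1.45 and differed by -1.04 between origins in astrocytes, and Rarres2 differed by -0.71. Rarres2 was low, with group means from 3.67 to 4.04 in NSCs, near the filter, and from 4.79 to 5.57 in astrocytes. Ccdc153 passed the filter through the hippocampal astrocytes (mean 5.86), with 2.92 and 2.71 in tdTomato and EYFP astrocytes, under the filter of 3.32, so its difference had to be large and is not counted as support. The log2 of the summed level of the list was 9.45 to 10.51 in NSCs and 10.99 to 12.31 in astrocytes, nearly all of it from Foxj1. Of the 8 astrocyte markers, 5 were lower and 1 higher in traced astrocytes, among the former Aldh1l1 (-3.30, and -3.44 in NSCs), Gja1 (-1.81) and Gfap (-0.99), and the latter Slc1a2 (0.93). In NSCs 5 of the 8 were lower and 0 higher in traced libraries by limma, against 14.9% and 17.0% of all genes. Of the 6 NSC markers 3 were lower and 3 higher in traced astrocytes, with Nes at -2.67 and Vim at -1.42 among the lower ones, and of 4 proliferation genes 1 was lower and 3 were not called. Of 5 neuron genes 4 were higher and 1 lower. Of 4 oligodendrocyte genes 2 were higher and 2 lower, of which Mbp passed the filter only through the hippocampal astrocytes, and of 2 endothelial and mural genes 1 was higher and 1 was not called. The part of these cell type markers in the differences of Mt3, Mt1 and Mt2 was not tested.

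The traced lines were compared with each other as a measure of how far lines of 1 origin differ. In NSCs the 3 metallothioneins were lower in the tdTomato than in the EYFP line, as were 14.9% of genes tested. The difference was -0.79 ± 0.13 for Mt2 (SE; adjusted p = 1.8e-04), -0.50 ± 0.10 for Mt3 (0.0011) and -0.29 ± 0.09 for Mt1 (0.0160), by limma. The third tdTomato NSC library held the lowest value of all 3 genes. Without it, Mt2 and Mt3 were still called, at -0.59 and -0.38, and Mt1 was not, at -0.17 (adjusted p = 0.109). The call of Mt1 was also lost without EYFP NSC replicate 1 (-0.27, adjusted p = 0.0579) or replicate 2 (-0.26, 0.0663), and in a fit of these 2 groups alone (0.0535). Mtf1 (0.06, 95% interval -0.07 to 0.18) and Slc30a1 (-0.13, -0.29 to 0.03) did not pass the threshold.

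In astrocytes 0 of the 5 genes were called between the tdTomato and EYFP lines by limma, and 0 had an unadjusted p under 0.05, while 14.4% of genes were called in either direction. The 95% intervals were -0.24 to 0.12 for Mt1, -0.50 to 0.04 for Mt2 and -0.17 to 0.25 for Mt3. The change from NSC to astrocyte was larger in the tdTomato line for Mt3, by 0.54 ± 0.14 (SE; adjusted p = 0.0176 by limma), where 6.36% of genes had a larger change. This call was lost without tdTomato NSC replicate 3 (0.42, adjusted p = 0.0517) or EYFP NSC replicate 1 (0.48, 0.0531). For Mt2 the value was 0.55 (adjusted p = 0.0509), for Mt1 0.23 (0.222), for Slc30a1 0.29 (0.0821) and for Mtf1 -0.09 (0.528). Mt2 was called with median centring (adjusted p = 0.0453 by limma), quantile normalization (0.0373), the low-value filter set at 100 (0.0466) or the replicate number as a block (0.0136). It was also called without tdTomato NSC replicate 1 (0.68, 0.0142), EYFP NSC replicate 3 (0.66, 0.0212) or EYFP astrocyte replicate 1 (0.63, 0.0427). Without tdTomato NSC replicate 3 it lay at 0.36 (0.113). Slc30a1 was called without tdTomato NSC replicate 1 (0.38, 0.0177), EYFP NSC replicate 3 (0.35, 0.0360) or EYFP astrocyte replicate 2 (0.36, 0.0289). The replicate block called it too (0.29, adjusted p = 0.035 by limma).

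The other zinc transporters were followed as 2 families, the ZnT proteins, which move zinc out of the cytosol, and the ZIP proteins, which move it in. Of 10 ZnT genes 7 could be tested, of which 4 rose in astrocytes, 2 fell and 1 was not called, with a median of 0.12 for the list. The shares over all genes were 44.3% for rises and 42.0% for falls. Genes of transporters of internal membranes changed little: Slc30a7 rose by 0.30 ± 0.03 and Slc30a9 by 0.13 ± 0.02, and Slc30a5 fell by 0.08 ± 0.02. The other gene called lower was Slc30a10, known chiefly as a manganese exporter gene, at -0.67 ± 0.14 in the mean of the lines. It passed the filter mainly through the hippocampal line, where its mean was 6.97 in NSCs and 5.70 in astrocytes, against 2.71 and 2.75 in the tdTomato line, where it was level, and 3.64 and 2.85 in the EYFP line, all near or under the filter.

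Of 14 ZIP genes 11 could be tested, of which 7 rose, 3 fell and 1 was not called, with a median of 0.27. Of all genes tested, 44.3% rose and 42.0% fell. Slc39a12, a brain zinc importer, rose by 3.47 ± 0.09 (SE; adjusted p = 1.2e-16 by limma), from 7.52 to 8.97 in the 9 NSC libraries to 11.75 to 12.18 in the 9 astrocyte libraries, a larger log2 change than that of any metallothionein. Slc39a14, which also carries iron and manganese, rose by 0.84 ± 0.04 and Slc39a1, an importer of the plasma membrane, by 0.81 ± 0.03. The falls were those of Slc39a10 (-0.99 ± 0.04), a gene that MTF-1 is known to repress, Slc39a7 (-0.45 ± 0.03) and Slc39a6 (-0.35 ± 0.03). In astrocytes 7 of the 11 were lower and 2 higher in traced than in hippocampal libraries (31.9% and 27.9% of all genes), with Slc39a14 at -1.21 ± 0.06 and Slc39a1 at -0.49 ± 0.04, while Slc39a12 differed by -0.27 (adjusted p = 0.104 by limma). One of the 2 higher, Slc39a2, lay near or under the filter, with means of 3.53, 3.89 and 2.79 in tdTomato, EYFP and hippocampal astrocytes. In NSCs 1 of the 11, Slc39a1, was lower (-0.14) and 0 were higher by limma (14.9% and 17.0% of all genes). The change was smaller in the traced lines for 6 of the 11 (25.9% of all genes) and larger for 0 (20.3%) by limma.

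**Figure D4:**
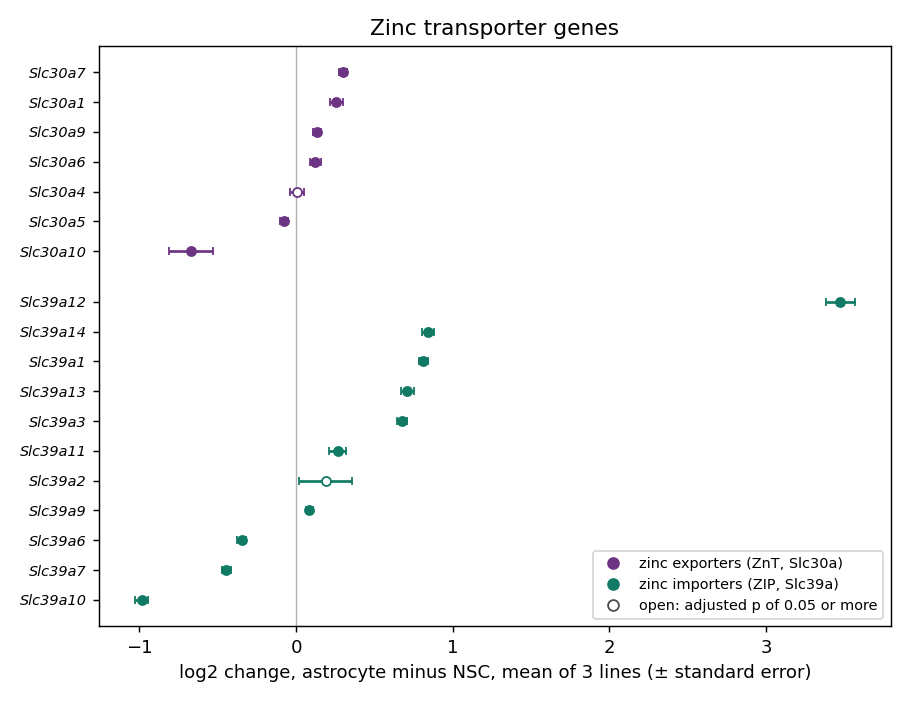
Log2 change from NSC to astrocyte, mean of the 3 lines, with its standard error (horizontal axis) for the tested ZnT (purple) and ZIP (green) genes, open where the adjusted p is 0.05 or more. Slc39a12 stands apart at 3.47, and the ZnT genes lie between -0.67 and 0.30.

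Of 9 genes reported as responding to MTF-1, 8 could be tested, of which 5 rose and 3 fell, with a median of 0.61 for the list (44.3% and 42.0% of all genes rose and fell). Without the 3 members, 2 rose and 3 fell. Those that rose were the members Mt1, Mt2 and Slc30a1, Gclc (0.95 ± 0.04), a glutathione synthesis gene, and Ndrg1 (1.56 ± 0.10), a stress response gene. Ndrg1 rose chiefly in the hippocampal line, from 4.75 to 8.07 in the group means. It went from 6.44 to 7.01 in the tdTomato and from 5.30 to 6.08 in the EYFP line. The falls were Selenoh (-3.06 ± 0.05) and Selenow (-0.70 ± 0.04), both selenoprotein genes, and Slc39a10. As MTF-1 is known to repress Slc39a10, the counts and the median of the list do not measure 1 direction of response. Genes of glucocorticoid response, a further known inducer of Mt1 and Mt2, went in both directions, 3 of 8 up and 5 down, with a median of -0.61. The receptor gene Nr3c1 rose by 0.59 ± 0.02, Tsc22d3 by 0.49 ± 0.06 and Zbtb16 by 1.28 ± 0.06. Dusp1 (-1.89 ± 0.09), Fkbp5 (-1.72 ± 0.07) and Klf9 (-0.72 ± 0.04) fell.

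The genes whose pattern over the 18 libraries was most like that of each member were found by Pearson's r among the 11019 genes with a mean of at least 6.64. The libraries share lines, passages and one normalization, and 2 fates far apart make most of such a correlation, so that the values are descriptions. For Mt1 these were Hacl1, Nipal3 and Ankrd46 (r = 0.996 each), and for Mt2 Os9 (0.992), Draxin (0.991) and Wipi2 (0.991). For Mt3 they were Foxj1 (0.991), Palld (0.985) and Cst3 (0.984). Mtf1 was most like Tmem189 (0.961), Kif3b (0.960) and Tusc2 (0.959), and Slc30a1 was most like Ildr2 (0.902), Tns1 (0.899) and Micu3 (0.896). Among the members themselves r was 0.986 for Mt1 with Mt2, 0.885 for Mt1 with Mt3 and 0.909 for Mt2 with Mt3. With each group's mean taken off, the same 3 pairs gave 0.727, 0.748 and 0.586 over the 18 libraries. For Mt1 with Mtf1 the value was 0.900 over all libraries and -0.041 with group means taken off. In the same way Slc30a1 gave 0.614 with Mt2, 0.380 with Mt3, 0.130 with Mt1 and -0.180 with Mtf1. Mtf1 gave -0.312 with Mt2 and -0.123 with Mt3. The third tdTomato NSC library, the lowest for all 3 metallothioneins, is among the 18, and its part in these values was not tested.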

How the data were processed

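RNA-seq libraries of 18 cultures were processed by the authors. The processing notes name Trimmomatic (version 0.36), STAR (2.5.2), RSEM (1.3.0), DESeq2 (1.18.1) and R (3.4.3), with GRCm38, and the paper's methods name Ensembl release 89. The table deposited holds log2 values for 27997 genes, 29.4% of them negative. The transform and the strand setting of the counting are not given in the sources used here, and changes of weakly expressed genes may be understated. The labels give at least 25 M reads a library, but counts per gene could not be recovered from the values, so that no counting error is given. The labels name a TruSeq Stranded kit and the paper's methods another mRNA kit.

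Groups came from the sample labels. Symbols were matched for 27887 genes. Values were tested as deposited with limma (version 3.58.1, R 4.3.3, trend in the variance) in a model of 6 group means, for genes with at least 3.32 (10 on the linear scale) in at least 3 libraries, with Benjamini-Hochberg adjustment. Group folds are 2 to the power of a difference. The test was tested on simulated data with known changes. Replicate numbers were not taken to pair the samples. The 5 members and all gene lists were chosen with earlier results of these data known. Genes named were the members, for the zinc, MTF-1, glucocorticoid, copper, iron and glutathione lists the 3 largest called rises and falls, markers, and the 3 genes most like each member. Gm45774, 1110065P20Rik and 1700034H15Rik were added because they overlap members, and single markers and transporters that differ by origin were named after their values were seen. Alternatives were other filters, pseudocounts of 1 and 10, median centring, quantile normalization, no variance trend, fits of the compared groups alone, the replicate number as a block, and each library left out in turn.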

Additional observations from a re-analysis of the deposited data

Results flagged for a closer look

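Among 10 tests of the 5 genes for a change that differed between lines, 4 passed the threshold (limma, adjusted over 15448 genes). The change from NSC to astrocyte was lower in the traced than in the hippocampal line for Mt1 (-0.51), Mt2 (-0.59) and Mt3 (-0.58), and it was higher in the tdTomato than in the EYFP line for Mt3 (0.54). Of all genes tested, 25.9% had a lower change in traced lines and 20.3% a higher one, and 6.36% had a higher change in the tdTomato line, so that calls in the first comparison were common. The first 3 were called in each fit that left out 1 library, with ranges of -0.57 to -0.47 for Mt1, -0.69 to -0.53 for Mt2 and -0.63 to -0.51 for Mt3, whereas the last was lost without tdTomato NSC replicate 3 or EYFP NSC replicate 1. With 1 line for the hippocampal origin, origin and line cannot be told apart.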

How the results depend on the processing

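Of 440 values of members under alternatives other than left-out libraries, 425 kept their direction and their side of the threshold, 2 lost the threshold, 9 passed it and 4 changed sign. Of 900 values with 1 library left out, 872 kept both, 8 lost the threshold, 10 passed it and 10 changed sign. Of the 50 differences, 13 changed in some fit, and the rises of all 5 genes in the mean of the lines were not among these.

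For traced against hippocampal NSCs, a fit of the compared groups alone called 0 members, and 2822 genes against 4932. For the change in the tdTomato less that in the EYFP line, 1 member was called, but 2 with a filter of 100 on the linear scale, with median centring or with quantile normalization, and 0 to 3 with 1 library left out. Without tdTomato NSC replicate 3, 1317 genes were called there against 2060. The gene added to the call was Mt2 (adjusted p = 0.0466, 0.0453 and 0.0373 by limma). Mt2 was also called without tdTomato NSC replicate 1 (0.68, adjusted p = 0.0142), EYFP NSC replicate 3 (0.66, 0.0212) or EYFP astrocyte replicate 1 (0.63, 0.0427), and fell to 0.36 (0.113) without tdTomato NSC replicate 3. With the replicate block, 3 members were called, with Mt2 at 0.0136 and Slc30a1 at 0.035, and Slc30a1 was called in traced against hippocampal astrocytes (0.13, adjusted p = 0.0401). The block changed no other call. As deviations from group means across genes, same-numbered libraries of a fate all correlated above 0 (18 pairs, 0.0117 to 0.313, mean 0.106), but no 2 groups had all 3 pairs above 0.1, and the mean was -0.0235 over 9 pairs within a line. Of 18 libraries, 15 correlated best with one of their own number, a hint from the data and not the design. Median centring also called Slc30a1 in the EYFP line (0.19, adjusted p = 0.0326), as did leaving out EYFP astrocyte replicate 3 (0.19, 0.0409), and in traced against hippocampal astrocytes, as did quantile normalization (0.18, 0.0331). Mt1 in tdTomato against EYFP NSCs was not called in a fit of those groups alone (adjusted p = 0.0535). Slc30a1 was called there without tdTomato NSC replicate 1 (-0.22, 0.0364).

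Values near 0 changed sign. Mt2 in traced against hippocampal NSCs was -0.0198 with median centring, -0.0165 with quantile normalization and -0.0547 to 0.105 with 1 library left out. The origin difference in the change of Mtf1 was 0.0485 with median centring, 0.0369 with quantile normalization and -0.0652 to 0.0192 with 1 library left out. In tdTomato against EYFP astrocytes, Mt3 was -0.0471 to 0.106 and Mtf1 -0.0845 to 0.0160 with 1 library left out. The cause of these changes was not tested. Interactions were not refitted on fewer groups, and without counts per gene no limit of detection can be given.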

Other observations

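Other metal and redox genes were measured beside the zinc genes. Of 15 genes of copper handling, 7 rose in astrocytes, 5 fell and 3 were not called, with a median of 0.08. The 7 include Steap4, whose rise is only a description, as said below. Of all genes tested 44.3% rose and 42.0% fell, with a median of 0.02. Steap3, which encodes a metalloreductase, rose by 2.52 ± 0.07 (SE). Its relative Steap4 passed the filter through the astrocytes only, with means from 1.59 to 1.97 in the NSC groups and of 3.90, 4.32 and 7.86 in tdTomato, EYFP and hippocampal astrocytes, so its change of 3.62 ± 0.19 is only a description. Slc31a2, which encodes a copper transporter of internal membranes, rose by 1.81 ± 0.05. Commd1 (-0.39 ± 0.03), the importer gene Slc31a1 (-0.35 ± 0.03) and Sco2 (-0.24 ± 0.10) fell. Of 11 iron genes tested, 3 rose and 6 fell, with a median of -0.09. Fth1, the ferritin heavy chain gene, rose by 2.13 ± 0.05, close to the change of Mt1 and Mt2, Hmox1, which encodes the heme-degrading enzyme, by 1.74 ± 0.07 and Ncoa4 by 0.68 ± 0.03. Trf, the transferrin gene (-1.52 ± 0.09), Tfrc, that of its receptor (-1.02 ± 0.06), and Aco1 (-0.47 ± 0.02) fell. Of 13 genes of glutathione and of the oxidant-sensing factor NRF2, 10 rose and 2 fell, with a median of 0.78. Srxn1 rose by 2.25 ± 0.07, Gstm1 by 1.54 ± 0.06 and Gclc by 0.95 ± 0.04, and Gsr (-1.08 ± 0.04) and Txnrd1 (-0.62 ± 0.03) fell. All of these named changes had an adjusted p under 0.05 by limma.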
